A study of Mus musculus with 20 samples.

Results

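Described here are 9 genes of polyamine synthesis and its control, Odc1, Amd1, Srm, Sms, Oaz1, Oaz2, Azin1, Sat1 and Smox, chosen by name and not by a measured value, out of 13156 genes in 2 experiments. All 9 were present among the 13107 genes counted in the Myc experiment and the 11210 counted in the HU experiment, and all 9 passed the filter on rare genes.

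Polyamines are small, positively charged molecules that bind nucleic acids, and growing cells need them. Odc1, ornithine decarboxylase, makes putrescine from ornithine. Amd1, S-adenosylmethionine decarboxylase, supplies the aminopropyl groups with which Srm, spermidine synthase, and Sms, spermine synthase, build spermidine and spermine. The antizymes Oaz1 and Oaz2 bind Odc1 protein and deliver it to the proteasome, while Azin1, antizyme inhibitor, binds the antizymes and so spares Odc1. Sat1, spermidine/spermine N1-acetyltransferase, and Smox, spermine oxidase, break polyamines down. Odc1 is a textbook target gene of the transcription factor Myc.

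The p19/Nras line used here is a mouse liver cancer line from an Nras-driven tumor of a p19/Arf-null mouse, so that every group shares the loss of p19/Arf and the Nras transgene. Trim33, a ubiquitin ligase, was targeted with CRISPR. The Myc experiment had 12 libraries, 2 in each of 6 groups: cells with a control guide (WT) and the Trim33-KO lines KO1 and KO2, each with the empty vector pWZL (Ctrl) or with Myc. The HU experiment had 8 libraries, 2 in each of 4 groups: WT and KO cells given vehicle or 1 mM hydroxyurea (HU), an inhibitor of ribonucleotide reductase that stalls replication forks, for 4 h. Which KO line entered the HU experiment is not labelled, nor is whether replicates came from separate cultures, so p-values measure only the spread between libraries, which may be technical. Whether a KO line is 1 clone is not given in the sources used here. A two-sided exact permutation test of 2 libraries against 2 cannot go below p = 0.333, so the tests draw on a spread pooled over genes by edgeR. RNA was taken from whole cultures, in which fewer cells expressing a gene and less RNA per cell cannot be told apart.

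Total counts were 14753177 to 17949430 in the Myc experiment and 2315327 to 3082202 in the HU experiment. Levels are CPM, counts scaled to library size by the TMM method within each experiment, and log2 differences are given with their standard error (SE). Trim33 mRNA followed the labels in the HU experiment, at 139.7 and 125 CPM in WT vehicle and 50.8 and 43.8 CPM in KO vehicle, and at 142 and 139 with HU in WT and 50.9 and 52.2 with HU in KO. It did not in the Myc experiment. It was 246 and 258 CPM for WT Ctrl, 123 and 130.4 for KO1 Ctrl and 201 and 207 for KO2 Ctrl. With the Myc vector the WT label had 131 and 155 CPM, the KO1 label 185 and 193 and the KO2 label 124 and 125, so the libraries labelled KO1 Myc held more Trim33 mRNA than those labelled WT Myc. The contrast between the KO lines also turned with the vector. Across 10439 genes with a mean of at least 5 CPM, the log2 difference of KO2 from KO1 correlated at r = −0.795 between the Ctrl and the Myc vector, a description across genes, which are not replicates. All 54 genes at least 4 log2 units apart between KO2 Ctrl and KO1 Ctrl had the opposite sign between the libraries labelled KO2 Myc and KO1 Myc, 51 of them by 2 log2 units or more. Of the 9 polyamine genes, 8 turned sign too. Among these 8, only Odc1, Sms, Sat1 and Oaz1 differed between the lines by more than 2 SE with both vectors. The share of all genes that turned sign was not counted. Every comparison with the Myc vector below therefore rests on labels that Trim33 mRNA goes against, and the cause was not tested. The turned contrast holds no WT library, so it cannot tell whether the label WT Myc is right. Afp was higher in WT Ctrl and WT Myc than in every KO group of this experiment. Cnksr2, on chromosome X, differed by log2 −0.05 between WT Myc and WT Ctrl. Under the labels KO1 Myc and KO2 Myc it was 3.14 and 2.56 above WT Myc. Rps6ka3 nearby went the other way, at −1.42 in WT Myc and −1.64 and −0.85 in KO1 Ctrl and KO2 Ctrl, against WT Ctrl. Other genes were not counted. The 2 libraries labelled WT Myc also stood apart from each other: their squared difference per gene was 10.6 times counting noise, against 2.15 to 4.43 in the other 9 groups of both experiments, and the spread used in every test is pooled over groups. The comparisons among Ctrl libraries were also fitted without any Myc library. Among marker genes, 1 of 8 hepatocyte markers (Afp, 0.221 to 33 CPM, lowest under the labels KO2 Myc and KO1 Ctrl) was listed for the Myc experiment and 2 of 8 (Apob, Afp) for the HU experiment. The keratins Krt8, Krt18 and Krt19 summed to 1910 to 4310 CPM in the Myc experiment, lowest under the label KO2 Myc, and to 2170 to 3100 CPM in the HU experiment. Of 5 mesenchymal markers 5 and 3 were listed, which summed to 2870 to 3930 CPM, highest in KO1 Ctrl, and to 2620 to 3440 CPM. Of 3 endothelial markers 0 were listed and of 4 immune markers only Cd68, at up to 6.3 CPM. The part of these markers in the results was not tested. The labels give the cells as HCC: keratins and mesenchymal markers were abundant, while 7 of 8 and 6 of 8 defining hepatocyte markers, Alb and Ttr among them, were not listed in the analysed tables.

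**Figure D1:**
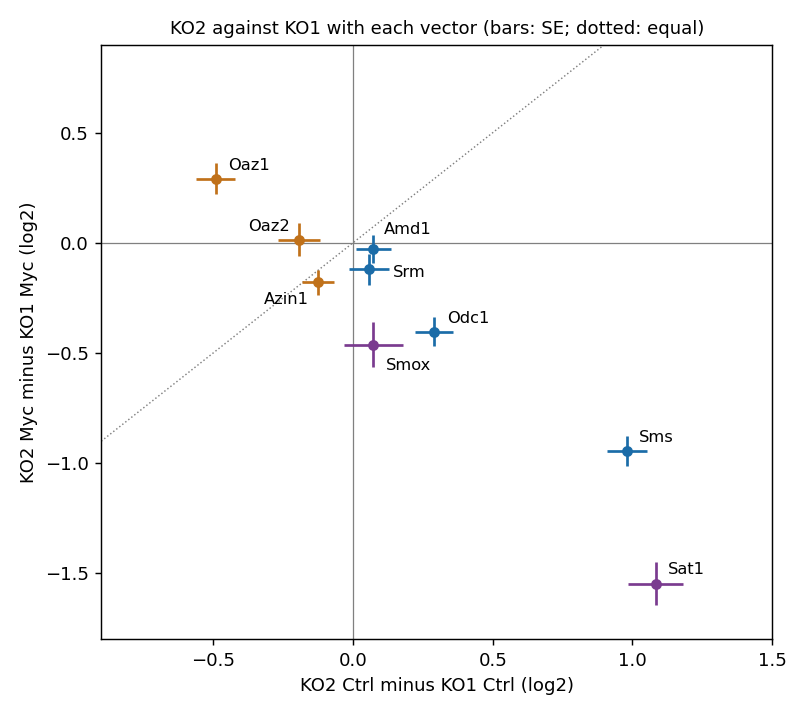
Log2 difference of KO2 from KO1 for the 9 genes with the Ctrl vector (horizontal) and the Myc vector (vertical), with standard errors as bars and equal values on the dotted line. Sms lies at 0.98 and −0.94 and Sat1 at 1.08 and −1.55, and only Azin1 has the same sign with both vectors.

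The genes lie on 7 chromosomes. In the build of the files, mm9, Odc1 spans chr12:17551679-17558308 (plus strand), Srm chr4:147965612-147969102 (plus strand), Smox chr2:131317232-131351658 (plus strand), Oaz2 chr9:65515808-65538107 (plus strand) and Azin1 chr15:38417185-38449021 (minus strand). Amd1, at chr10:40007265-40021992 (minus strand), and Oaz1, at chr10:80289401-80292035 (plus strand), share a chromosome. Sat1, at chrX:151647675-151650992 (minus strand), and Sms, at chrX:153881787-153930219 (minus strand), lie 2.23 Mb apart on chromosome X. The letters CACGTG, the core of the E-box that Myc and Max bind, were searched within 1000 bases each side of the annotated start; they read the same on both strands. Of 22380 protein-coding genes, 27.8% had at least 1 such match, 5.71% at least 2 and 0.0402% at least 5. Srm had 5, Odc1 and Azin1 had 2 each, Amd1, Sms and Oaz2 had 1 each, and Oaz1, Sat1 and Smox had none. The intronic matches of Odc1 and Srm are shown because these are the enzymes of the set with several matches outside exons. Both windows are on the plus strand of mm9, 5′ to 3′, with CACGTG in capitals.
Odc1 intronic window, chr12:17551984-17552069: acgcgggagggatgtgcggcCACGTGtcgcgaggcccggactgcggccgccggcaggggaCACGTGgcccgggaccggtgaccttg
Srm intronic window, chr4:147965946-147966026: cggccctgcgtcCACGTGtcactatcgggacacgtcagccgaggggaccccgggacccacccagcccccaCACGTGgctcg
In Odc1 they begin 325 and 365 bases after the start, and in Srm 346 and 404 bases after it. A further 2 matches in Srm, 420 and 462 bases after the start, fell in an exon of one of its transcripts, and another lay 172 bases before the start.

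RefSeq promoters of build GRCm38.p6 matched 7 of the 9 genes. The windows of Srm and Azin1 are not shown here. Shown are the 250 bases before the start, in the sense of the gene, for 4 genes. Odc1 was called in both experiments, though with the Myc vector it rose only under the label KO1 and fell under the label WT. Sms has an upstream start, of its listed pair, that holds a CACGTG. The breakdown enzymes Sat1 and Smox rose together in HU. Capitals mark CACGTG and the GC box GGGCGG or, on the other strand, CCGCCC.
Odc1 promoter, chr12:17544623-17544872: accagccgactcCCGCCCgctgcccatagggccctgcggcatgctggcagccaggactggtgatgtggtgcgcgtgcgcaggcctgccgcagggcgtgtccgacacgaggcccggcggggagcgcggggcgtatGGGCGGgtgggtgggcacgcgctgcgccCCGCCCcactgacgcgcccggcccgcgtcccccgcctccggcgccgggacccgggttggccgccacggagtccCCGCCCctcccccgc
Sms promoter, chrX:157492288-157492537: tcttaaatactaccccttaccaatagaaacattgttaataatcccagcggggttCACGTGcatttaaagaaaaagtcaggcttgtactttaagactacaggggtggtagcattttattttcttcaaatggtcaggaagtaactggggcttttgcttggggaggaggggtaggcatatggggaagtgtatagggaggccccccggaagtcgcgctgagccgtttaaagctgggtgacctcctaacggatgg
Sat1 promoter, chrX:155216450-155216699: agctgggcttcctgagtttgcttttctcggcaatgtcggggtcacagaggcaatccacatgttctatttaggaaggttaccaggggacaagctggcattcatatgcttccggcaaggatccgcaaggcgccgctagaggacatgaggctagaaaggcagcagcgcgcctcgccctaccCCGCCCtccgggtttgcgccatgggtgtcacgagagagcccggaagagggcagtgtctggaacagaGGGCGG
Smox promoter, chr2:131491612-131491861: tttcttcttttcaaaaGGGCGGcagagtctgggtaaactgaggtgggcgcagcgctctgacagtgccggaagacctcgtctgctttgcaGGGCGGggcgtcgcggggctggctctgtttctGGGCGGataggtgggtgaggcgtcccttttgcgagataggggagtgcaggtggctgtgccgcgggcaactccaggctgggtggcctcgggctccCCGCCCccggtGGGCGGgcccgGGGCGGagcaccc
Odc1 and Smox lie here on the plus strand and Sms and Sat1 on the minus strand. The GC box occurred 4 times in the Odc1 window, 2 times in that of Sat1, 6 times in that of Smox and not at all in that of Sms. The second listed start of Sms, whose window is chrX:157491369-157491618, had 4 GC boxes and no CACGTG. Windows of the same length before 32851 starts held it in 32.7% and CACGTG in 6.02%. TATAAA (12.4% of all windows), TGANTCA (6.75%), TGACGTCA (1.55%) and the p53 half-site by its consensus (7.13%) were searched on both strands and matched none of the listed windows of the 7 genes. CCAAT, in 33.8% of all windows, matched the upstream window of Sms and that of Oaz1. These matches are descriptions of letters and not of binding.

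Levels between genes were compared as CPM per kilobase of the longest annotated transcript. In WT Ctrl the order was Oaz1 (197), Odc1 (157), Srm (98.5), Oaz2 (71.3), Azin1 (61.6), Sat1 (58), Smox (51.4), Amd1 (40.5) and Sms (19.6 CPM per kb). In WT vehicle Oaz1 (318), Odc1 (180.0) and Srm (111) again led, while Sat1 (20.5) and Smox (11.7 CPM per kb) came last. Oaz1 and Odc1 transcripts thus led the set in the WT groups without Myc vector or HU, while in KO vehicle Srm (149 CPM per kb) lay above Odc1 (139). Some counts are uncertain. Oaz1-ps, a pseudogene copy of Oaz1, had 1.22 to 1.26 times the counts of Oaz1 in the 12 libraries of the Myc experiment and 1.31 to 1.39 times in the 8 of the HU experiment. Amd2, a copy of Amd1, had 0.904 to 0.975 and 0.841 to 0.993 times the counts of Amd1. The counting could have split or shared reads between these copies, so the values of Oaz1 and Amd1 are uncertain.

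Over the 6 groups of the Myc experiment, 8 of the 9 genes differed among groups at an adjusted p below 0.01, where 80% of all genes did. Amd1 was the exception (adjusted p = 0.0125). The ratio of the highest to the lowest group mean was 3.81 for Sat1, 2.84 for Smox and 2.39 for Sms, larger than in 88.3%, 83.1% and 77.7% of genes. It was 1.18 for Amd1, larger than in 3.96% of genes. Over the 4 groups of the HU experiment 8 of 9 differed at an adjusted p below 0.05, where 30.3% of all genes did. There Oaz1 was the exception (adjusted p = 0.681), and Sat1, Smox and Odc1 varied most, with ratios of 2.98, 2.89 and 2.02, larger than in 93.7%, 93.3% and 83.7% of genes.

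The comparisons of KO1 Ctrl and KO2 Ctrl with WT Ctrl ask what loss of Trim33 did to transcripts in unchallenged cells, and they share the WT Ctrl libraries. With the Ctrl vector both KO lines had less mRNA of the breakdown enzymes Smox and Sat1, of Odc1 and of Oaz2 than WT cells, and more Oaz1. In KO1 Ctrl 6 of the 9 genes were called, 5 lower and 1 higher, with 52.2% of all genes called, and the median of the 9 log2 differences was −0.59, against −0.00362 over all genes tested. In KO2 Ctrl 5 were called, 4 lower and 1 higher, with 49.9% of all genes called, and the median of the 9 log2 differences was −0.18, against −0.01 over all genes tested. These shares are near those of all genes. Smox was 115 and 121 CPM for WT Ctrl, 43.6 and 43.9 for KO1 Ctrl and 47.9 and 44.2 for KO2 Ctrl. Both KO lines lay well below WT and beside each other (log2 difference −1.43 ± 0.1, adjusted p = 3.48e-09 in KO1, log2 difference −1.36 ± 0.0996, adjusted p = 7.72e-09 in KO2). Sat1 was 80.2 and 76.7 CPM for WT Ctrl, 25.8 and 23.5 for KO1 Ctrl and 51.3 and 53.1 for KO2 Ctrl, with no overlap between any groups. It was 3.18-fold lower in KO1 (log2 difference −1.67 ± 0.0965, adjusted p = 3.15e-10) and 1.5-fold lower in KO2 (log2 difference −0.59 ± 0.0887, adjusted p = 2.73e-05).

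Among the synthesis enzymes, Odc1 was 414 and 388 CPM for WT Ctrl, 251 and 236 for KO1 Ctrl and 299 and 296 for KO2 Ctrl. It fell in both lines (log2 difference −0.72 ± 0.0665, adjusted p = 9.76e-08 in KO1, log2 difference −0.43 ± 0.066, adjusted p = 3.14e-05 in KO2). Myc mRNA, whose part in this was not tested, was 433 and 439 CPM for WT Ctrl, 186 and 196 for KO1 Ctrl and 210.3 and 219 for KO2 Ctrl. Sms was 75.2 and 70.2 CPM for WT Ctrl, 41.2 and 38.5 for KO1 Ctrl and 81.8 and 75.4 for KO2 Ctrl, and it fell in KO1 (log2 difference −0.87 ± 0.0717, adjusted p = 2.63e-08), whereas its difference in KO2 did not pass the test (log2 0.11, 95% interval −0.03 to 0.26). Srm had log2 differences of −0.22 (adjusted p = 0.0123) and −0.16 (0.0543), neither past the threshold. For KO1 it passed with the Ctrl libraries fitted alone (adjusted p = 0.000553). Amd1 had −0.14 and −0.07, with 95% intervals of −0.28 to −0.01 and −0.21 to 0.07.

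Of the genes that control Odc1 protein, Oaz1 was 218 and 203 CPM for WT Ctrl, 409 and 375 for KO1 Ctrl and 284 and 275 for KO2 Ctrl. It was the member that rose in both lines (log2 difference 0.90 ± 0.0703, adjusted p = 1.37e-08 in KO1, log2 difference 0.41 ± 0.0704, adjusted p = 0.00011 in KO2). Oaz2 went the other way, from 136 and 127 CPM in WT Ctrl to 86.9 and 87.9 for KO1 Ctrl and 75.4 and 77.5 for KO2 Ctrl (log2 difference −0.59 ± 0.074, adjusted p = 3.44e-06 and log2 difference −0.78 ± 0.0747, adjusted p = 1.74e-07). Azin1 had log2 differences of −0.05 and −0.18. The latter missed the threshold (adjusted p = 0.012) and passed it with the Ctrl libraries alone (0.000696). All 11 calls of these 2 comparisons held with the Ctrl libraries alone.

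Between KO2 Ctrl and KO1 Ctrl, 4 of the 9 genes were called, 3 higher and 1 lower in KO2, with 18.3% of all genes called, and the median of the 9 log2 differences was 0.07, against −0.02 over all genes tested. Sat1 and Sms, the pair on chromosome X, were 2.12-fold and 1.97-fold higher in KO2 (log2 difference 1.08 ± 0.0988, adjusted p = 4.01e-07, and log2 difference 0.98 ± 0.0711, adjusted p = 2.83e-08). Oaz1 was lower (log2 difference −0.49 ± 0.0694, adjusted p = 5.07e-05). Odc1 was higher (log2 difference 0.29 ± 0.0666, adjusted p = 0.00349), a call lost without any 1 of the 4 libraries (adjusted p from 0.0132 to 0.0584). Smox differed by 0.07 (95% interval −0.15 to 0.30) and Oaz2 by −0.19 (adjusted p = 0.0697, and 0.00778 with the Ctrl libraries alone).

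**Figure D2:**
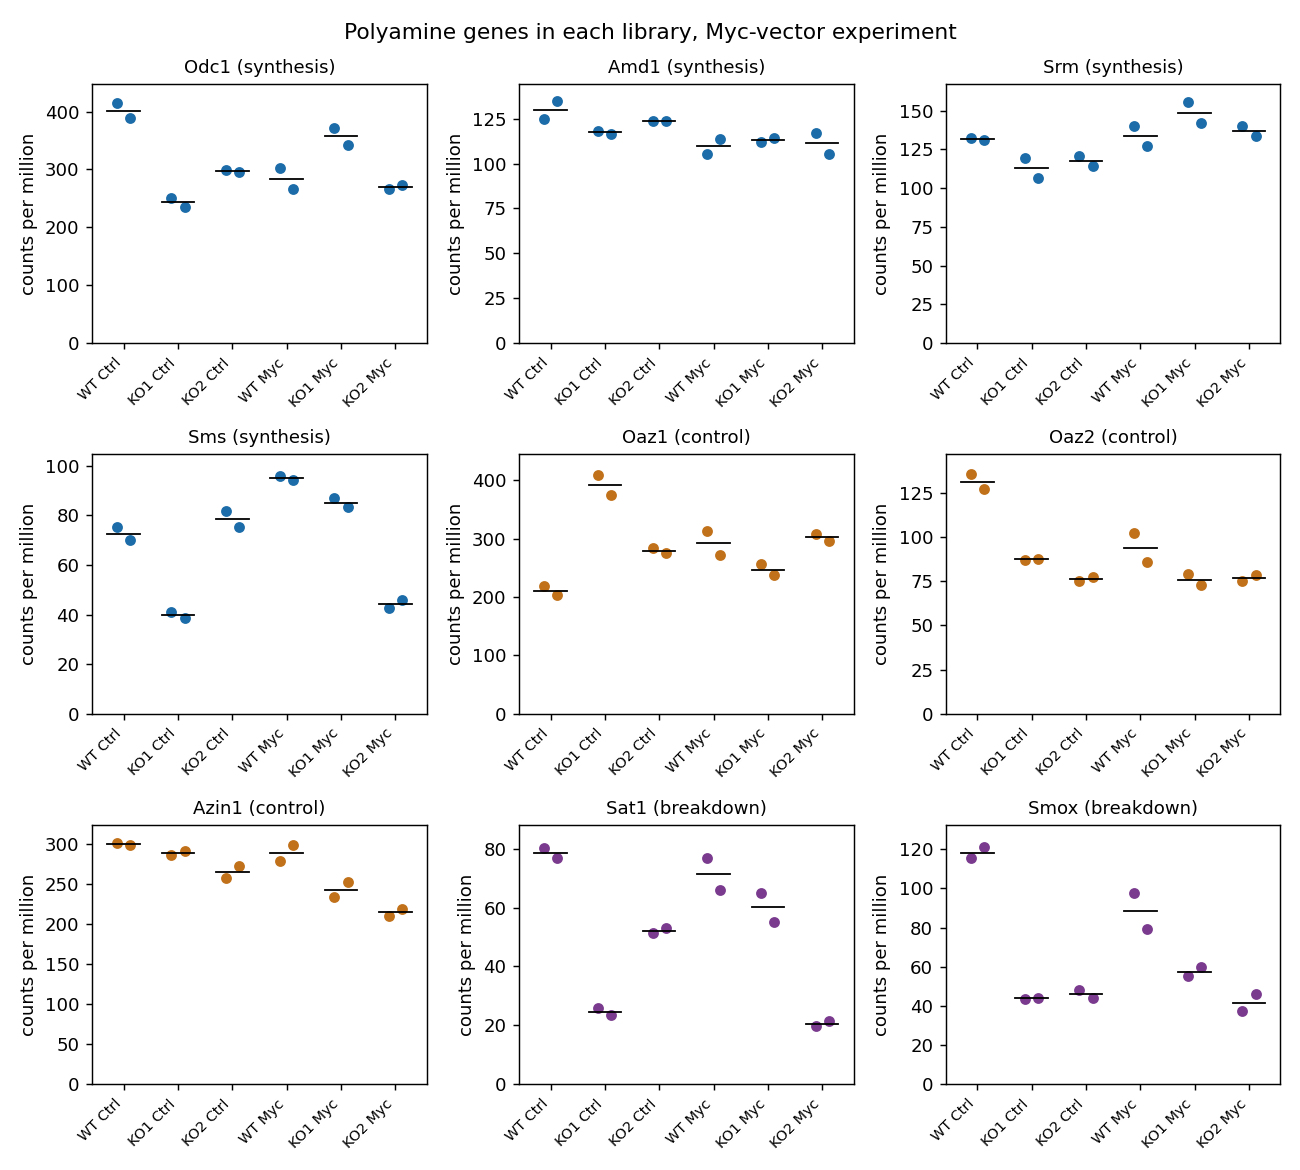
CPM of the 9 genes in the 12 libraries of the Myc experiment, 1 point per library, with a bar at the group mean and axes from 0. Smox, Sat1, Odc1 and Oaz2 lie lower and Oaz1 higher in KO1 Ctrl and KO2 Ctrl than in WT Ctrl, and Sms and Sat1 are lowest in KO1 Ctrl and KO2 Myc.

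The libraries with the Myc vector were compared with those of the same label and the Ctrl vector to ask what Myc did. Odc1 fell with the Myc vector in the libraries labelled WT, rose in those labelled KO1 and did not pass the test in those labelled KO2. In the libraries labelled WT, 6 of 9 genes were called, 2 higher and 4 lower, with 44.3% of all genes called, and the median of the 9 log2 differences was −0.14, against 0.01 over all genes tested. Odc1 was 303 and 266 CPM in WT Myc, below both WT Ctrl libraries (log2 difference −0.50 ± 0.066, adjusted p = 1.01e-05). Myc mRNA did not pass the test between these groups, at 456 and 458 CPM in WT Myc (log2 difference 0.07 ± 0.0548, adjusted p = 0.31). Sms, at 95.9 and 94.2 CPM, and Oaz1, at 313 and 272, rose (log2 difference 0.39 ± 0.0667, adjusted p = 0.000131 for Sms, log2 difference 0.47 ± 0.0703, adjusted p = 3.1e-05 for Oaz1). Oaz2 (−0.48), Smox (−0.42) and Amd1 (−0.24, adjusted p = 0.00427) fell. The call of Amd1 was lost without WT Ctrl replicate 2 (adjusted p = 0.0685) or WT Myc replicate 1 (0.0223) and when no other group entered the fit (0.0346), and that of Smox without WT Ctrl replicate 2 (0.0188).

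With the label KO1, 7 of 9 genes were called, 5 higher and 2 lower with the Myc vector, with 36.1% of all genes called, and the median of the 9 log2 differences was 0.39, against 0.01 over all genes tested. All of the synthesis enzymes but Amd1 rose. Odc1 was 372 and 343 CPM (log2 difference 0.55 ± 0.0663, adjusted p = 4.11e-06), Srm 155 and 142 against 119.5 and 107 in KO1 Ctrl (log2 difference 0.40 ± 0.0703, adjusted p = 0.000218), and Sms 87.1 and 83.3 (log2 difference 1.10 ± 0.0705, adjusted p = 3.59e-09). Among the others, Sat1 rose 2.44-fold to 65 and 55.2 CPM, and Smox rose to 55.3 and 59.8 (log2 difference 0.39 ± 0.103, adjusted p = 0.00487). Oaz1 fell to 256 and 238 CPM (log2 difference −0.67 ± 0.0695, adjusted p = 8.89e-07) and Azin1 to 234 and 252 (log2 difference −0.25 ± 0.0567, adjusted p = 0.00174). Without KO1 Ctrl replicate 1, KO1 Ctrl replicate 2 or KO1 Myc replicate 1 the call of Azin1 was lost (adjusted p from 0.0125 to 0.0589), and that of Smox was lost without KO1 Ctrl replicate 1, KO1 Ctrl replicate 2 or KO1 Myc replicate 2 (0.0309 to 0.0456).

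With the label KO2, 3 of 9 genes were called, all lower with the Myc vector, with 38.8% of all genes called, and the median of the 9 log2 differences was −0.14, against 0.02 over all genes tested. Sat1 fell to 19.8 and 21.4 CPM (log2 difference −1.34 ± 0.0992, adjusted p = 1.65e-08), Sms to 42.8 and 45.7 (log2 difference −0.83 ± 0.0694, adjusted p = 7.49e-08) and Azin1 to 210.2 and 219 (log2 difference −0.30 ± 0.0569, adjusted p = 0.000322). Sat1 and Sms thus moved in opposite directions in the lines labelled KO1 and KO2. Odc1 was 266 and 274 CPM, against 299 and 296 in KO2 Ctrl, and its difference missed the threshold (log2 −0.14, adjusted p = 0.0884). Myc mRNA reached 621 and 646 CPM under the label KO1 Myc and 459 and 499 under the label KO2 Myc, 3.31-fold and 2.23-fold its level in the Ctrl libraries of the same label. Of 24 other Myc target genes listed by hand, 14 rose and 3 fell with the Myc vector in KO1-labelled libraries (median log2 difference 0.26) and 15 rose and 1 fell in those labelled KO2 (0.27), whereas 5 rose and 3 fell in those labelled WT. These were 70.8%, 66.7% and 33.3% of the list, against 36.1%, 38.8% and 44.3% of all genes. Against WT Ctrl, 0 rose and 10 fell in KO1 Ctrl, and 3 rose and 10 fell in KO2 Ctrl, 41.7% and 54.2% of the list against 52.2% and 49.9% of all genes.

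The effect of the Myc vector differed between the libraries labelled KO1 and WT for 6 of 9 genes in an interaction test, with 37.3% of all genes called, and the median of the 9 log2 differences was 0.38, against 0.00 over all genes tested. For Odc1 the log2 effect was 0.55 in KO1 and −0.50 in WT, a difference of 1.05 ± 0.0936 (adjusted p = 1.6e-07). Oaz1 had the converse, −1.14 (1.19e-07). Between KO2 and WT it differed for 5 of 9, with 32.8% of all genes called, and the median of the 9 log2 differences was 0.09, against 0.02 over all genes tested. There Sms and Sat1 had differences of −1.21 (5.59e-08) and −1.21 (1.91e-06). With those groups alone in the fit, or without KO2 Ctrl replicate 1 or 2, KO2 Myc replicate 1 or 2, or WT Ctrl replicate 1, the 5 fell to 3, namely Sms, Sat1 and Oaz2. The comparisons share Ctrl libraries, so that a low KO1 Ctrl value enters both the KO and the Myc comparison.

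KO and WT cells were also compared with the Myc vector. Under the label KO1 Myc 4 of 9 genes were called against WT Myc, 1 higher and 3 lower, with 25.1% of all genes called, and the median of the 9 log2 differences was −0.24, against −0.01 over all genes tested. Odc1 was higher (log2 difference 0.33 ± 0.0659, adjusted p = 0.000964), while Smox (−0.62), Oaz2 (−0.31) and Azin1 (−0.25) were lower. The calls of Odc1, Oaz2 and Azin1 were lost with these groups alone in the fit or without KO1 Myc replicate 1, which left Smox as the 1 call, and that of Oaz2 also without KO1 Myc replicate 2 or WT Myc replicate 1. Under the label KO2 Myc 5 were called, all lower, with 35.2% of all genes called, and the median of the 9 log2 differences was −0.29, against −0.00378 over all genes tested. These were Sat1 (log2 difference −1.79 ± 0.0968, adjusted p = 3.53e-10), Sms (−1.10), Smox (−1.08), Azin1 (−0.43) and Oaz2 (−0.29), of which Oaz2 was lost without KO2 Myc replicate 1 or 2 or WT Myc replicate 1 (adjusted p from 0.0145 to 0.0601) and when no other group entered the fit (0.0396). Odc1 did not differ past the threshold (95% interval −0.21 to 0.07). Smox and Oaz2 were called lower in all 4 comparisons of a KO line with WT, with either vector, though with the Myc vector the calls of Oaz2 were lost as given above.

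**Figure D3:**
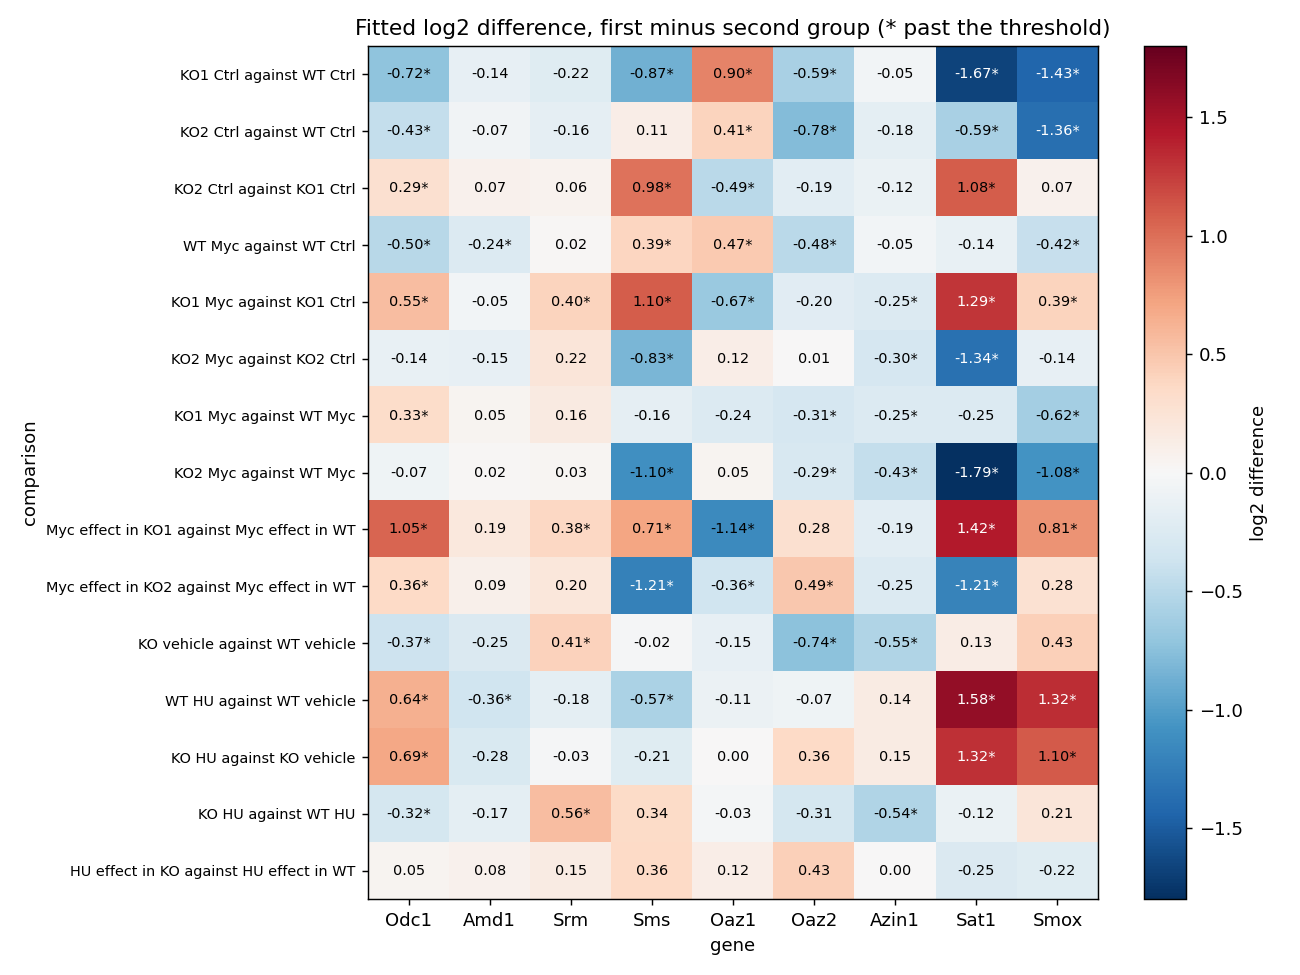
Fitted log2 differences of the 9 genes (columns) in 15 comparisons (rows), first group minus second, with an asterisk where the adjusted p passed 0.01 in the Myc experiment or 0.05 in the HU experiment. Smox is negative in all 4 rows that set a KO line against WT in the Myc experiment, and Odc1, Sat1 and Smox are positive in both HU rows.

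Ordered by mean level, Odc1 ran from WT Ctrl through KO1 Myc, KO2 Ctrl, WT Myc and KO2 Myc to KO1 Ctrl, and only KO2 Ctrl and WT Myc, and WT Myc and KO2 Myc, were adjacent groups within 2 SE of each other. Oaz1 ran from KO1 Ctrl through KO2 Myc, WT Myc, KO2 Ctrl and KO1 Myc to WT Ctrl, the reverse order, and the same 2 adjacent pairs were within 2 SE. Smox ran from WT Ctrl through WT Myc and KO1 Myc to KO2 Ctrl, KO1 Ctrl and KO2 Myc, and the adjacent pairs among the last 3 were within 2 SE. All 6 groups of Amd1 were within 2 SE of the next in order. The ratio of Oaz1 to Odc1 counts was taken within a library and so is free of scaling. It uses the same counts as these orders and is not separate from them. With the Ctrl vector it was 0.528 and 0.523 for WT, 1.63 and 1.59 for KO1, and 0.947 and 0.929 for KO2. With the Myc vector it was 1.03 in both libraries labelled WT, 0.688 and 0.695 in those labelled KO1, and 1.16 and 1.08 in those labelled KO2. No group of the Myc experiment overlapped another in this ratio.

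Across the 12 libraries, which share groups, the log2 CPM of Odc1 and Oaz1 correlated at r = −0.879 and those of Sms and Sat1 at 0.914. Oaz2 and Smox had r = 0.852. Of 10296 genes with a mean of at least 5 CPM and a symbol, the 5 most like Odc1 were Zbtb21 (r = 0.970), Itgb7 (0.963), Dusp5 (0.939), Mafg (0.936) and Gpatch4 (0.932). Over the 8 libraries of the HU experiment their r with Odc1 was 0.836, −0.0802, 0.371, 0.127 and −0.559, with Zbtb21 the highest of them. Myc had r = 0.534 with Odc1 over the 12 libraries and 0.847 over the 8.

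The HU experiment asked how WT and KO cells responded to stalled forks. Odc1 and the breakdown enzymes Sat1 and Smox rose with HU in both WT and KO cells. In WT cells 5 of 9 genes were called, 3 higher and 2 lower, with 9.83% of all genes called, and the median of the 9 log2 differences was −0.07, against 0.00 over all genes tested. In KO cells 3 were called, all higher, with 6.45% of all genes called, and the median of the 9 log2 differences was 0.15, against −0.01 over all genes tested. Sat1 was 29.1 and 26.3 CPM in WT vehicle and 76 and 89.4 in WT HU, 2.98-fold higher (log2 difference 1.58 ± 0.195, adjusted p = 3.56e-09). In KO cells it was 27.2 and 33.1 CPM with vehicle and 78.5 and 73.1 with HU (log2 difference 1.32 ± 0.193, adjusted p = 4e-07). All 4 HU libraries lay more than 2-fold above all 4 vehicle libraries. Smox was 29.1 and 24.8 CPM in WT vehicle and 65.5 and 69.3 in WT HU (log2 difference 1.32 ± 0.198, adjusted p = 6.24e-07), and 37.4 and 35.4 in KO vehicle and 82 and 73.9 in KO HU (log2 difference 1.10 ± 0.188, adjusted p = 1.43e-05). Here too no HU library overlapped a vehicle library.

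Odc1 was 406 and 512 CPM in WT vehicle and 709 and 722 in WT HU (log2 difference 0.64 ± 0.104, adjusted p = 4.49e-06), 1.56-fold higher. In KO cells it was 346 and 364 CPM with vehicle and 593 and 554 with HU (log2 difference 0.69 ± 0.106, adjusted p = 1.38e-06). In level, Odc1 ran from WT HU through KO HU and WT vehicle to KO vehicle, each more than 2 SE above the next. Myc mRNA rose as well, from 203 and 162 to 385 and 331 CPM in WT and from 181 and 178 to 267 and 253 in KO, and its part was not tested. Of the 24 other Myc targets 2 rose and 6 fell in WT cells and 1 rose and 3 fell in KO cells, 33.3% and 16.7% of the list against 9.83% and 6.45% of all genes. The other synthesis enzymes did not follow Odc1. Sms fell in WT cells, from 94.2 and 97.4 to 57.9 and 71.3 CPM (log2 difference −0.57 ± 0.174, adjusted p = 0.0225), and Amd1 fell from 218 and 241 to 194 and 163 (log2 difference −0.36 ± 0.122, adjusted p = 0.0454). Both calls were lost under DESeq2 (adjusted p = 0.123 and 0.109) and without WT HU replicate 1 or WT vehicle replicate 2, which left Odc1, Sat1 and Smox. That of Amd1 was also lost without WT HU replicate 2 and when no other group entered the fit (adjusted p = 0.0502), and that of Sms without WT vehicle replicate 1. Srm had −0.18 in WT and −0.03 in KO, with 95% intervals of −0.43 to 0.08 and −0.27 to 0.22. Oaz1, Oaz2 and Azin1 were not called in WT or KO cells. Oaz1 had log2 differences of −0.11 (95% interval −0.34 to 0.12) and 0.00 (−0.23 to 0.24), and its ratio to Odc1 counts went from 0.706 and 0.772 to 0.464 and 0.420 in WT and from 0.820 and 0.914 to 0.523 and 0.558 in KO.

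**Figure D4:**
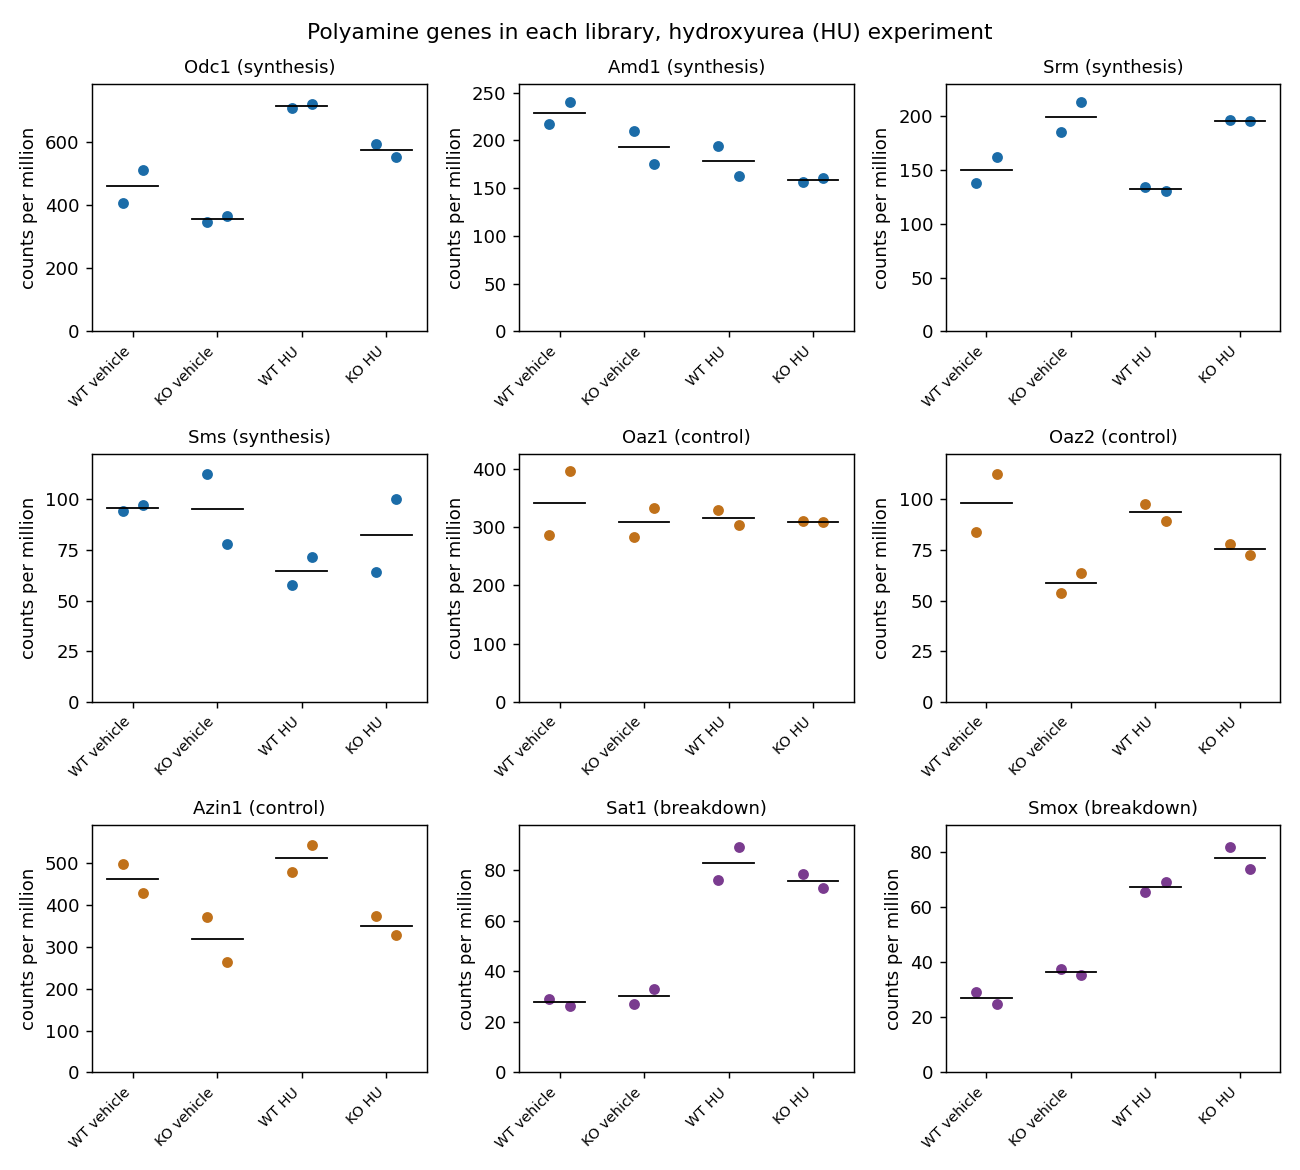
CPM of the 9 genes in the 8 libraries of the HU experiment, 1 point per library, with a bar at the group mean and axes from 0. The HU libraries lie above the vehicle libraries of the same genotype for Odc1, Sat1 and Smox, and Srm is higher and Azin1 lower in KO than in WT.

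The response to HU was compared between KO and WT cells by the interaction test of edgeR. Of the 9 genes 0 were called and 0 had an unadjusted p below 0.05, DESeq2 called 0, and 0.0714% of all genes were called, and the median of the 9 log2 differences was 0.08, against −0.01 over all genes tested. The 95% intervals of the difference in response were −0.24 to 0.35 for Odc1, −0.81 to 0.30 for Sat1 and −0.77 to 0.33 for Smox, and differences within them were not detectable with 2 libraries per group at this depth and spread (biological coefficient of variation 0.102, against 0.0498 in the Myc experiment).

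Between KO vehicle and WT vehicle 4 of 9 genes were called, 1 higher and 3 lower, with 12% of all genes called, and the median of the 9 log2 differences was −0.15, against −0.000128 over all genes tested. Srm was higher, at 185 and 212 CPM against 137 and 161 (log2 difference 0.41 ± 0.125, adjusted p = 0.0202). Azin1 was lower, at 372 and 264 against 497 and 429 (log2 difference −0.55 ± 0.116, adjusted p = 0.000636), as was Oaz2, at 53.7 and 63.5 against 84 and 112 (log2 difference −0.74 ± 0.165, adjusted p = 0.00106), and Odc1 (log2 difference −0.37 ± 0.107, adjusted p = 0.0142). Without WT vehicle replicate 2 only Srm and Azin1 were called, without KO vehicle replicate 2 only Odc1 and Oaz2, and with these groups alone only Azin1 and Oaz2. Srm was lost under DESeq2 (adjusted p = 0.0563). Odc1 and Srm were each lost without 1 further library, Odc1 without KO vehicle replicate 1 (adjusted p = 0.0633) and Srm without WT vehicle replicate 1 (0.208). Between KO HU and WT HU 3 of 9 were called, 1 higher and 2 lower, with 11% of all genes called, and the median of the 9 log2 differences was −0.12, against −0.01 over all genes tested. Srm was higher (log2 difference 0.56 ± 0.125, adjusted p = 0.00102), and Azin1 (log2 difference −0.54 ± 0.115, adjusted p = 0.000549) and Odc1 (log2 difference −0.32 ± 0.103, adjusted p = 0.0331) were lower. Without KO HU replicate 2 or WT HU replicate 2 only Srm was called, and Odc1 was lost without any 1 of the 4 libraries (adjusted p from 0.102 to 0.284) and under DESeq2 (0.0719).

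The vehicle comparison and the Ctrl-vector comparisons both set KO against WT in cells without Myc vector or HU, in tables that were fitted apart and at different depth, and they are given side by side without a test. Odc1 had log2 differences of −0.72 and −0.43 in KO1 and KO2 with the Ctrl vector and −0.37 in KO vehicle, and Oaz2 −0.59, −0.78 and −0.74, each called lower in all 3. Smox had −1.43 and −1.36 but 0.43 in KO vehicle (adjusted p = 0.191). Oaz1 had 0.90 and 0.41 but −0.15 (0.477), and Sat1 −1.67 and −0.59 but 0.13 (0.777). WT cells differed as well. Myc mRNA was 433 and 439 CPM in WT Ctrl and 203 and 162 in WT vehicle, and Smox 115 and 121 and 29.1 and 24.8.

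**Figure D5:**
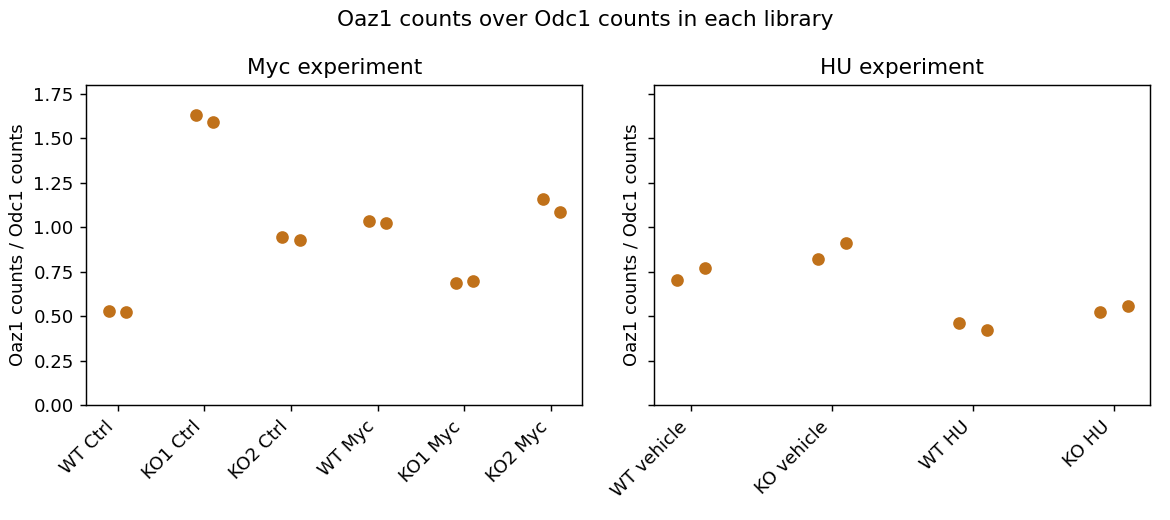
Oaz1 counts divided by Odc1 counts in each library of the Myc (left) and HU (right) experiment, 1 point per library, with a shared axis from 0. The ratio is lowest in WT Ctrl and highest in KO1 Ctrl in the Myc experiment, and lower with HU than with vehicle in both genotypes.

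Of 34 other genes of polyamine metabolism listed by hand, 23 could be tested in the Myc experiment and 21 in the other. Arg1, Arg2 and Otc, which make or use ornithine, were not analysed here. In KO1 Ctrl 7 of the 23 rose and 8 fell against WT Ctrl, and in KO2 Ctrl 6 rose and 10 fell, 65.2% and 69.6% of the list against 52.2% and 49.9% of all genes. The largest falls were in amino acid supply. Slc3a2, the heavy chain of several amino acid exchangers, had log2 differences of −2.02 ± 0.108 and −1.84 ± 0.107. Slc7a1, which imports arginine and ornithine, had −1.84 and −1.63. Aldh18a1, on the route from glutamate to ornithine and proline, had −1.71 and −1.70. The acetylpolyamine oxidase Paox had −1.15 and −0.71. Dhps, which starts the making of hypusine from spermidine, had −0.49 and −0.55, whereas Eif5a2, a translation factor that carries hypusine, rose by 2.29 and 3.24. Eif5a2 rose from a level near the floor, 1.2 and 0.957 CPM in WT Ctrl. Apip and Adi1 of methionine salvage and Atp13a3, a polyamine transporter, fell in both lines, and Mtap and Enoph1 of methionine salvage, Oat, which interconverts ornithine, Eif5a and Oaz1-ps rose in both. Oaz1-ps kept 1.22 to 1.26 times the counts of Oaz1 in the 12 libraries, so its rise may not be separate from that of Oaz1.

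With the Myc vector 8 of the 23 rose and 8 fell in the libraries labelled WT, 8 rose and 2 fell in those labelled KO1, and 7 rose and 2 fell in those labelled KO2. Aldh18a1 (1.56 and 1.39), Slc3a2 (1.63 and 1.25) and Slc7a1 (1.22 and 0.91) rose in those labelled KO1 and KO2, and unlike Sat1 and Sms they moved the same way in both. In those labelled WT, Slc7a1 (−0.76), Aldh18a1 (−0.42) and, most of the list, Atp13a3 (−0.96) fell, and Sat2, a relative of Sat1, rose most (2.29). Sat2 was near the floor, at 0.283 and 0.547 CPM in WT Ctrl and 1.82 and 2.31 in WT Myc. The called genes under the labels WT, KO1 and KO2 were 69.6%, 43.5% and 39.1% of the list, against 44.3%, 36.1% and 38.8% of all genes. In HU 3 of the 21 rose and 3 fell in WT cells, and 4 rose and 2 fell in KO cells, 28.6% of the list in each, against 9.83% and 6.45% of all genes. Slc3a2 (1.02 in WT, 0.60 in KO), Slc7a1 (0.95, 0.84) and Aldh18a1 (0.86, 0.58) rose with Odc1 in both genotypes. Mat2a, which makes S-adenosylmethionine, fell in WT and KO cells (−0.87, −0.84), and Mtap (−0.42) and Adi1 (−0.55), which recycle the by-product of spermidine and spermine synthesis, fell in WT cells. Between KO vehicle and WT vehicle 1 of 21 was called, the vesicular polyamine transporter Slc18b1, at 0.813 and 2.67 CPM against 7.71 and 9.77 (log2 difference −2.25 ± 0.695, adjusted p = 0.0237), 4.76% of the list against 12% of all genes. These were counts of 2 and 8 against 18 and 26, so Slc18b1 was near the floor in KO vehicle. With the Ctrl vector its log2 difference had the opposite sign, at 0.64 in KO1 and 0.54 in KO2. The latter was not called (adjusted p = 0.013, edgeR).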

How the data were processed

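RNA of the cultured cells was extracted with TRIzol and made into libraries with a NEBNext Ultra II kit, per the labels. The paper's methods instead name an RNeasy kit and a NEBNext Ultra RNA kit, and which were used cannot be told here. How mRNA was selected is not given in the sources used here. Per the submitters' processing notes, bcl2fastq 2.20, FastQC 0.11.5, STAR 2.5.4 with build mm9 and edgeR 3.26.8 were used. The authors deposited whole-number counts per gene, in 1 table for each experiment, and the counting tool is not given in the sources used here. Of counts from 1 to 50, 71.9% were even in the HU experiment, against 48.4% in the Myc experiment, so counts divided by 2 were tried as an alternative.

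Genes were filtered with filterByExpr, which removed 0 genes, and fitted with edgeR 4.0.16 (R 4.3.3, limma 3.58.1), its quasi-likelihood test, TMM factors of 0.958 to 1.02 and a group term, over the 12 libraries of the Myc experiment and, apart, the 8 of the HU experiment. P-values were adjusted by the Benjamini-Hochberg method over all genes, and a gene was called at an adjusted p below 0.01 in the Myc and below 0.05 in the HU experiment. Standard errors and 95% intervals come from the same fits. Neighboring groups in an order of levels were set apart at 2 SE. On simulated data the fit recovered 188 of 200 genes changed by 1 log2 unit for KO1 Ctrl against WT Ctrl (94%, 12825 genes) and 145 of 200 for WT HU against WT vehicle (72.5%, 11017 genes). It also called 2 unchanged genes in the former and 10 in the latter. Recovery is given for changes of 1 log2 unit only, and many differences described here are smaller. DESeq2 1.42.0 and the other alternatives are given in the closing section.

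All 9 genes of the set are described. Of the other listed genes those are named that were called alike in both KO lines with the Ctrl vector, or that moved most in a comparison. The genes, lists and tests were chosen with earlier results of these data known. Positions come from GENCODE vM1 on mm9 and promoter windows from RefSeq on GRCm38.p6.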

Additional observations from a re-analysis of the deposited data

Results flagged for a closer look

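The effect of the Myc vector on 6 of the polyamine genes differed between the libraries labelled KO1 and WT in the interaction test of edgeR. The differences, KO1 minus WT, were 1.05 for Odc1 (adjusted p = 1.6e-07), 1.42 for Sat1 (2.14e-07), 0.81 for Smox (0.000155), 0.71 for Sms (1.72e-05), 0.38 for Srm (0.0049) and −1.14 for Oaz1 (1.19e-07), on the log2 scale. The value for Srm missed the threshold without KO1 Ctrl replicate 2, KO1 Myc replicate 1, WT Ctrl replicate 1 or WT Ctrl replicate 2 (adjusted p from 0.0172 to 0.0385) and with the compared groups alone in the fit (0.0109).

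Between the libraries labelled KO2 and WT it differed for 5 genes. The differences, KO2 minus WT, were −1.21 for Sms (5.59e-08), −1.21 for Sat1 (1.91e-06), 0.49 for Oaz2 (0.00128), 0.36 for Odc1 (0.0053) and −0.36 for Oaz1 (adjusted p = 0.00739, edgeR). Those of Odc1 and Oaz1 missed the threshold without 1 of several libraries (adjusted p from 0.0112 to 0.0318 and from 0.0104 to 0.0469) and with the compared groups alone (0.0125 for each), and that of Odc1 also among genes of at least 5 CPM in every library (0.0136). Sms and Sat1 had opposite signs in KO1 and KO2. These values rest on the labels of the Myc-vector libraries, which Trim33 mRNA goes against. The turned contrast holds no WT library, so it cannot tell whether the label WT Myc is right. WT Myc lay nearer WT Ctrl in Afp and Cnksr2 but not in Rps6ka3 or Trim33, and the cause was not tested.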

How the results depend on the processing

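Of 1530 recomputed log2 differences of the 9 genes, 1398 kept their direction and side of the threshold, 71 lost and 24 gained a call, and 37 changed sign, none of them a call. The order of levels was the same under DESeq2's size factors for 17 of 18 cases. With the compared groups alone 11 calls of single genes were lost, and the members called fell from 4 to 2 for KO vehicle against WT vehicle, from 4 to 1 for KO1 Myc against WT Myc and from 5 to 3 for the Myc effect in KO2. With DESeq2 they fell from 5 to 3 for WT HU against WT vehicle. Leaving out 1 library in turn gave 1 to 3 members called for KO HU against WT HU, 2 to 4 for KO vehicle against WT vehicle, 1 to 6 for KO1 Myc against WT Myc, 3 to 6 for the Myc effect in KO2 against WT and 3 to 4 for WT HU against WT vehicle. These fits leave 1 library in a group, which is assumed to vary like the others. No filter and counts divided by 2 changed no call. Replicate differences had no common direction across groups (4 of 15 correlations above 0.1 and 2 below −0.1 in the Myc experiment, and 0 of 6 above 0.1 in the HU experiment). The extremes were WT Myc with KO1 Myc (0.485) and WT Myc with KO2 Myc (−0.356). A difference shared by these libraries with turned replicate numbers would not be held by a block on those numbers, and this was not tested. A replicate block in the fit lost no call and gained 5, taking the members called from 6 to 7 for KO1 Ctrl against WT Ctrl, from 5 to 6 for KO2 Ctrl against WT Ctrl and for the Myc effect in KO2 against WT, from 3 to 4 for KO2 Myc against KO2 Ctrl and from 4 to 5 for KO1 Myc against WT Myc.

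Sign changes without a call were these. For Oaz1, KO HU against KO vehicle was −0.000652 with DESeq2 and −0.00134 with its size factors. For Oaz2, KO2 Myc against KO2 Ctrl was −0.00133 among genes of at least 5 CPM, −0.0033 with those groups alone, −0.00899 with DESeq2 and −0.00893 with its size factors. Leaving out 1 library gave log2 differences of −0.0403 to 0.232 (the HU effect in KO against the HU effect in WT), −0.00811 to 0.102 (KO1 Myc against WT Myc), −0.0578 to 0.0916 (KO2 Myc against WT Myc) for Amd1; −0.225 to 0.291 (the HU effect in KO against the HU effect in WT), −0.0924 to 0.423 (KO HU against KO vehicle) for Azin1; −0.123 to 0.337 (the HU effect in KO against the HU effect in WT), −0.0958 to 0.117 (KO HU against KO vehicle), −0.0866 to 0.0288 (KO HU against WT HU), −0.36 to 0.0998 (KO vehicle against WT vehicle), −0.0495 to 0.15 (KO2 Myc against WT Myc), −0.333 to 0.127 (WT HU against WT vehicle) for Oaz1; −0.022 to 0.0346 (KO2 Myc against KO2 Ctrl), −0.275 to 0.142 (WT HU against WT vehicle) for Oaz2; −0.11 to 0.221 (the HU effect in KO against the HU effect in WT), −0.166 to 0.023 (KO2 Myc against WT Myc) for Odc1; −0.0186 to 0.244 (KO vehicle against WT vehicle) for Sat1; −0.568 to 0.0813 (KO HU against KO vehicle), −0.0121 to 0.637 (KO HU against WT HU), −0.307 to 0.236 (KO vehicle against WT vehicle) for Sms; −0.113 to 0.0698 (KO HU against KO vehicle), −0.0232 to 0.143 (KO2 Ctrl against KO1 Ctrl), −0.0361 to 0.107 (KO2 Myc against WT Myc), −0.0544 to 0.0885 (WT Myc against WT Ctrl) for Srm. The causes were not tested. The HU experiment had both a smaller depth and a larger spread between libraries (biological coefficient of variation 0.102 against 0.0498), and their parts in its wider intervals were not told apart.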

Other observations

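Sat1 and Sms lie 2.23 Mb apart on chromosome X, and a window from 2 Mb before Sat1 to 2 Mb after Sms was looked at after their values had been seen. It held 9 other genes at a mean of at least 5 CPM. In KO1 Ctrl 1 of these rose and 7 fell against WT Ctrl (median log2 difference −0.74), and under the label KO2 Myc 1 rose and 8 fell against KO2 Ctrl (−1.02). In KO2 Ctrl 2 rose and 2 fell against WT Ctrl (−0.02), and under the label KO1 Myc 3 rose and 0 fell against WT Myc (0.05). Against KO1 Ctrl, 7 rose and 0 fell in KO2 Ctrl (0.80), and 7 rose and 0 fell under the label KO1 Myc (0.78). Under the label KO2 Myc 1 rose and 7 fell against WT Myc (−0.75). Over all 320 genes of chromosome X at that level, 75 rose and 126 fell in KO1 Ctrl (−0.09), and 41 rose and 149 fell under the label KO2 Myc against KO2 Ctrl (−0.21). The other 10117 genes at that level matched no chromosome X gene by symbol, and genes without a symbol are among them. Of these, 2719 rose and 2891 fell in the former comparison and 2212 rose and 1967 fell in the latter. Against KO1 Ctrl, 787 of them rose and 1072 fell in KO2 Ctrl, and 1941 rose and 2022 fell under the label KO1 Myc. The members Sat1 and Sms thus moved as most of these neighbors did in KO1 Ctrl and under the label KO2 Myc. They did not in every comparison. In KO2 Ctrl Sat1 fell against WT Ctrl (−0.59) at a neighbor median of −0.02. In WT Myc 1 neighbor rose and 3 fell against WT Ctrl (−0.04), while Sms rose (0.39). In the HU experiment the window held 10 genes, of which 1 fell between KO vehicle and WT vehicle and 2 fell in WT cells given HU, while none was called in KO cells given HU or between KO HU and WT HU.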
